A study of Mus musculus with 2 samples.

Results

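The genes described here are 7 mouse genes of the major histocompatibility complex (MHC) class II pathway: Cd74, H2-Aa, H2-Ab1, H2-Eb1, H2-DMa, H2-DMb1 and Ciita. They were chosen by symbol from the feature list of 2 single-cell count matrices, and each symbol matched 1 of the 33696 features. Their molecules were counted in non-immune cells of the mouse colon, class by class, and cells with a molecule of Ptprc (the gene of the leukocyte marker CD45) were set apart. In all, 2268 molecules of the 7 genes lay in 1456 of 10657 cells of the control library, and 7282 lay in 2211 of 8302 cells of the Cre library.

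Both libraries came from whole colons of mice 6 months old and carried the genotype Il10ra ff, the usual notation for a floxed gene, here that of the IL-10 receptor alpha chain. The Cre library (Il10ra ff; Pdgfra-cre) also carried Cre recombinase under the promoter of Pdgfra, a receptor gene of fibroblasts, and the control library (Il10ra ff) carried no Cre. Live cells were sorted as positive for podoplanin and negative for CD45, CD31 and EpCAM, surface markers of leukocytes, endothelium and epithelium, and were run on a 10x Genomics droplet system with a 5′ kit that gives each RNA molecule a unique molecular identifier (UMI). Each genotype had 2 mice and 1 library, with no map from cells to mice, so every difference below compares 2 libraries, has no replicate check and carries no p-value. Intervals are exact 95% intervals and cover counting error only. The sex, strain and health of the mice are not given in the sources used here. Il10ra itself had 1 UMI in control fibroblasts and 5 in Cre fibroblasts, too few to check the deletion. Pdgfra was at 364 and 355 CPM (UMIs of the gene per 1000000 UMIs) in fibroblasts of the control and the Cre library, at 9.78 and 6.65 CPM in glia, 18.0 and 59.5 CPM in mesothelium, 88.7 and 18.2 CPM in lymphatic endothelium and 23.5 and 56.6 CPM in muscle.

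MHC class II molecules present peptides from the endosomal pathway to CD4+ T cells. Each is a pair of an alpha and a beta chain: H2-Aa and H2-Ab1 encode the chains of the H2-A molecule, and H2-Eb1 the beta chain of H2-E. Cd74, the invariant chain, escorts new molecules to endosomes and blocks their groove. The H2-DM molecule, made from H2-DMa and H2-DMb1, helps to exchange the last invariant chain fragment for peptide. Ciita is the coactivator that switches the whole set on, all the time in professional antigen-presenting cells and after interferon gamma in many other cell types, by acting on factors bound to a shared group of promoter boxes called X, X2 and Y.

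The promoter stretches below show these boxes in class II genes that had an entry in the RefSeq promoter table (build GRCm38.p6). Entries of 4 of the 7 genes were used. Cd74 was left out here, and H2-Ab1 and Ciita had no entry. Each stretch is 110 bases long, runs 5′ to 3′ on the gene's own strand from base -140 to base -31 relative to the RefSeq start, and lies on chromosome 17. Capitals mark matches to TGATTGG (a Y box core, the reverse of a CCAAT box), GATGATG (part of the X box) and GACGTCA (part of the X2 box), each searched on both strands.
H2-Aa (chr17:34287854-34287963, minus strand): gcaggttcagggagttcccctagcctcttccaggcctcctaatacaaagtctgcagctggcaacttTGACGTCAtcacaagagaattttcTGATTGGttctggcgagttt
H2-Eb1 (chr17:34305727-34305836, plus strand): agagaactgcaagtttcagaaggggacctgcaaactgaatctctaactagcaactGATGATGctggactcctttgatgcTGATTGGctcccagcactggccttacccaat
H2-DMb1 (chr17:34153051-34153160, plus strand): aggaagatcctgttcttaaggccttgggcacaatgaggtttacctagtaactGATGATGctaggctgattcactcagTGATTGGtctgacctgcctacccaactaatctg
The Y box core began at base -50 in H2-Aa, -61 in H2-Eb1 and -63 in H2-DMb1. The X box letters began at -85 in H2-Eb1 and -88 in H2-DMb1. In H2-Aa the X2 letters matched on both strands, at -73 and -74, because those matches overlap in 1 palindrome. These letters also occur elsewhere: of 32851 promoter windows of 300 bases, 7.82% held TGATTGG, 3.48% GATGATG and 3.21% GACGTCA. The 2 windows of H2-DMa held none of them.

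The stromal classes were gated cell by cell on marker genes, and each is a range cut from those markers rather than a sorted type; the words fibroblast, glia, mesothelium, lymphatic endothelium and muscle below mean cells that were like these types by their markers. Fibroblasts made up 9411 of the control cells and 7485 of the Cre cells. Glia numbered 67 and 113, mesothelium 61 and 46, lymphatic endothelium 44 and 42 despite the sort against CD31, and muscle 636 and 162. The gate required a minimum level of each class's own markers, so the levels of those markers cannot test it. The median glial cell had 45.2 and 49.1 glial marker UMIs per 10000 UMIs. The median lymphatic endothelial cell had 216 and 315 UMIs of its own markers per 10000. The median mesothelial cell also had 101 and 110 fibroblast marker UMIs per 10000 beside 64.3 and 44.3 mesothelial ones, and the median muscle cell 44.0 and 23.1 beside 82.1 and 86.5. Cells near the gate's minimum were 592 and 589 of the fibroblasts, 7 and 11 of the glia, 3 and 4 of the mesothelium, 1 and 2 of the lymphatic endothelium and 216 and 51 of the muscle. Median depth was 6725 and 7744 UMIs in fibroblasts, 4271 and 5142 in glia, 10073 and 11544 in mesothelium, 1957 and 2330 in lymphatic endothelium and 6790 and 6504 in muscle. The libraries shared 115 cell barcodes, 1.01% of the control and 1.33% of the Cre barcodes.

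Ptprc was found in 6 control and 9 Cre cells of all kinds. Among the 5 stromal classes it was found only in fibroblasts, in 4 control and 2 Cre cells, so glia, mesothelium, lymphatic endothelium and muscle are Ptprc-negative throughout. A count of 0 allows a share of cells with a Ptprc UMI, which is not the share that expresses it, of up to 4.48% and 2.65% in glia, 4.92% and 6.52% in mesothelium and 6.82% and 7.14% in lymphatic endothelium. Ptprc alone is a weak screen at this depth: of the 9 control and 21 Cre cells that passed a gate on leukocyte markers, Ptprc was found in 2 and 6. Those leukocyte-gated cells held 2831 and 8547 CPM of the 7 genes. They are a loose comparison for immune cells: 1 of the 9 control cells held 120 of their 190 class II UMIs, and the median control cell had 131 fibroblast beside 18.1 leukocyte marker UMIs per 10000, against 6.85 and 48.2 in the Cre library.

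All 5 classes had a higher level of class II RNA in the Cre library. In fibroblasts, the largest class, the summed level of the 7 genes was 28.6 CPM (27.3 to 29.9) in the control and 84.4 CPM (82.1 to 86.8) in the Cre library, 2.96-fold higher (2.80 to 3.12). In glia it was 26.1 CPM (11.3 to 51.4) and 799 CPM (730 to 874), 30.7-fold higher (15.4 to 71.4). In mesothelium it was 88.3 CPM (66.3 to 115) and 779 CPM (707 to 856), 8.83-fold higher (6.64 to 11.9). In lymphatic endothelium it was 54.6 CPM (23.6 to 108) and 1299 CPM (1095 to 1531), 23.8-fold higher (11.8 to 56.2). In muscle it was 19.0 CPM (15.2 to 23.5) and 45.3 CPM (33.8 to 59.4), 2.39-fold higher (1.66 to 3.41).

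In the Cre library the order ran from lymphatic endothelium through glia and mesothelium, whose intervals overlap, to fibroblasts and then muscle. In the control library mesothelium was highest, its interval overlapped that of lymphatic endothelium, and the intervals of fibroblasts and muscle did not overlap. Glia, mesothelium and lymphatic endothelium thus lay far above fibroblasts in the Cre library, with intervals that do not overlap theirs, and the leukocyte-gated cells lay above all 5 classes. The number of mice behind each of these cell groups is not known, and a level from few cells can rest on a few of them, as set out below for glia.

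**Figure D1:**
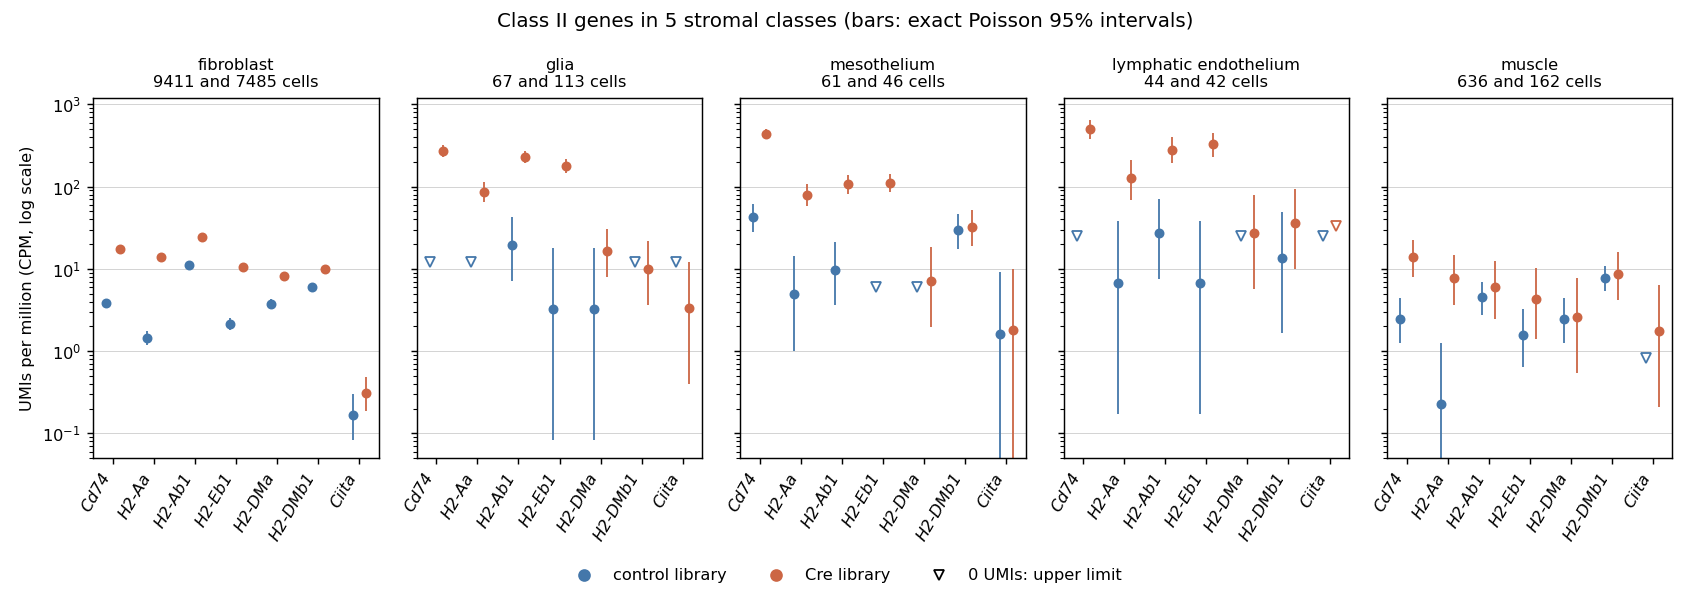
CPM (UMIs per 1000000 UMIs, log scale) of the 7 genes in each stromal class, 1 point per library (blue control, orange Cre), with exact Poisson 95% intervals; open triangles stand at the upper limit where no UMI was found, and a few bars run below the axis. Cd74, H2-Aa, H2-Ab1 and H2-Eb1 of glia, mesothelium and lymphatic endothelium lie between 79.3 and 500 CPM in the Cre library, while in muscle the intervals of the 2 libraries overlap for H2-Ab1 and both H2-DM genes and lie apart for Cd74 (2.49 and 13.9 CPM).

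The text calls a gene measured in a class when its mean over both libraries was at least 1 CPM and it had at least 20 UMIs in all, and past the fold when its log2 ratio, with 1 CPM added to both levels, reached 1.5-fold. In fibroblasts 6 of the 7 genes were measured, and all 6 were past the fold upward, where 5% of 13828 measured genes were. In glia 4 of 4 measured members were past the fold upward against 16.1% of measured genes, in mesothelium 4 of 5 against 12.8%, in lymphatic endothelium 3 of 3 against 16.6%, and in muscle 1 of 3 against 8.87%. No member was past the fold downward in any class, where 4.19% of measured genes were in fibroblasts, 8.74% in glia, 11.1% in mesothelium, 17.3% in lymphatic endothelium and 9.76% in muscle. The median log2 ratio of the measured members was 1.45 in fibroblasts, where that of all measured genes was -0.031.

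The invariant chain gene Cd74 (ENSMUSG00000024610) had the most UMIs of the 7 genes in every class of the Cre library but fibroblasts. In lymphatic endothelium it had 0 control and 55 Cre UMIs, in the latter 500 CPM (376 to 651). This is 24.4-fold higher when the control is set to a floor of 3 UMIs, and the exact lower limit of the ratio is 19.2. In mesothelium it was 42.5 CPM (27.8 to 62.3) and 440 CPM (387 to 499), 10.4-fold higher (6.90 to 16.2). In glia it had 0 and 164 UMIs, 272 CPM (232 to 318) in the Cre library, 27.9-fold higher by the same floor (exact lower limit 22.4). In fibroblasts it was 3.82 CPM (3.36 to 4.32) and 17.2 CPM (16.2 to 18.3), 4.52-fold higher (3.93 to 5.20). In muscle it was 2.49 CPM (1.24 to 4.45) and 13.9 CPM (7.97 to 22.6), 5.61-fold higher (2.44 to 13.4).

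Cells with a Cd74 UMI were 1.68% (1.43 to 1.96) of control and 6.67% (6.11 to 7.26) of Cre fibroblasts, or 0.568% and 2.34% after each cell was thinned to 2000 UMIs. That Cre share does not exceed the 9.26% (5.28 to 14.8) of Cre muscle cells with a Cd74 UMI. No Cre muscle cell held more than 2 Cd74 UMIs, whereas 1.15% of Cre fibroblasts held 3 or more, with up to 55 in 1 cell. In Cre glia 15.04% of cells were positive (9.02 to 23.0), in lymphatic endothelium 42.9% (27.7 to 59.0) and in mesothelium 50% (34.9 to 65.1), with 8.33%, 51.9% and 32.6% after thinning. Thinned shares leave out cells under 2000 UMIs, so that of Cre lymphatic endothelium describes only the 27 deeper cells of 42. Control mesothelium was positive in 16.4% of cells (8.15 to 28.1), and control glia and lymphatic endothelium in none, which allows a share of cells with a Cd74 UMI of up to 4.48% and 6.82% at these depths.

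The alpha chain gene of H2-A, H2-Aa (ENSMUSG00000036594), had the largest ratio in fibroblasts of the 7 genes. Its level there was 1.45 CPM (1.17 to 1.77) in the control and 14.0 CPM (13.04 to 14.9) in the Cre library, 9.65-fold higher (7.80 to 12.1). In glia it had 0 control and 52 Cre UMIs, the latter 86.4 CPM (64.5 to 113), 8.84-fold higher over the floor (exact lower limit 6.94). In mesothelium it had 3 and 44 UMIs, 4.90 and 79.3 CPM, a ratio of 16.2 (5.19 to 81.5). In lymphatic endothelium 1 and 14 UMIs gave 6.82 and 127 CPM, and in muscle 1 and 9 UMIs gave 0.226 and 7.84 CPM, too few in both for a measured ratio.

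The beta chain gene of H2-A, H2-Ab1 (ENSMUSG00000073421), had the most UMIs of the 7 genes in control fibroblasts, at 11.2 CPM (10.4 to 12.1), and its level was 24.3 CPM (23.1 to 25.5) in Cre fibroblasts, 2.16-fold higher (1.98 to 2.37). The interval of this ratio lies well below that of its partner chain. Cells with an H2-Ab1 UMI were 5.77% (5.31 to 6.26) of control and 9.82% (9.16 to 10.5) of Cre fibroblasts, above the 2.36% and 4.32% of muscle cells, or 1.95% and 3.49% after thinning against 0.969% and 0.633% in muscle. In glia H2-Ab1 was 19.6 CPM (7.18 to 42.6) and 231 CPM (194 to 273), 11.8-fold higher (5.29 to 32.8), but 5 of the 6 control UMIs came from 1 cell. In mesothelium it was 9.81 and 106 CPM, 10.9-fold higher (4.70 to 30.8), and in lymphatic endothelium 27.3 and 282 CPM, 10.3-fold higher (3.65 to 40.3). In muscle it was 4.52 CPM (2.76 to 6.98) and 6.10 CPM (2.45 to 12.6), a ratio of 1.35 whose interval spans no change (0.482 to 3.32).

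H2-Eb1 (ENSMUSG00000060586), the beta chain gene of H2-E, was 2.16 CPM (1.82 to 2.55) and 10.5 CPM (9.68 to 11.3) in fibroblasts, 4.85-fold higher (4.04 to 5.86). In glia it had 1 and 108 UMIs, 179 CPM (147 to 217) in the Cre library, with a ratio of 55.1 (9.68 to 2195). In lymphatic endothelium 1 and 36 UMIs gave a ratio of 48.0 (8.08 to 1947). In mesothelium it had 0 and 62 UMIs, 112 CPM (85.7 to 143), 22.8-fold higher over the floor (exact lower limit 18). In muscle 7 and 5 UMIs gave 1.58 and 4.36 CPM. The alpha chain gene of H2-E, H2-Ea, had 0 UMIs in all 5 classes of both libraries.

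Both H2-DM genes were past the fold in fibroblasts. H2-DMa (ENSMUSG00000037649) was 3.77 CPM (3.32 to 4.27) and 8.21 CPM (7.51 to 8.96) in fibroblasts, 2.18-fold higher (1.86 to 2.54). H2-DMb1 (ENSMUSG00000079547) was 5.97 CPM (5.39 to 6.59) and 9.94 CPM (9.17 to 10.8) there, 1.67-fold higher (1.46 to 1.90). Mesothelium had the same H2-DMb1 level in both libraries within counting error, 29.4 CPM (17.4 to 46.5) and 32.5 CPM (19.2 to 51.3), a ratio of 1.10 (0.541 to 2.25). That control level was above the control level of every other class, whose intervals reached at most 12.02 CPM except in lymphatic endothelium, where 2 UMIs gave 13.6 CPM (1.65 to 49.3). In glia H2-DMa had 1 and 10 UMIs and H2-DMb1 0 and 6, in lymphatic endothelium 0 and 3 and 2 and 4, and in muscle H2-DMa had 11 and 3 and H2-DMb1 34 and 10.

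Ciita (ENSMUSG00000022504), the coactivator gene, was at the edge of detection and was measured in no class. Fibroblasts had 11 control and 19 Cre UMIs, 0.167 CPM (0.0836 to 0.2995) and 0.310 CPM (0.187 to 0.484), each UMI in a cell of its own, and the ratio of 1.85 has an interval that spans no change (0.838 to 4.31). Of these cells, 2 of 11 and 4 of 19 held 2 or more of Cd74, H2-Aa, H2-Ab1 and H2-Eb1. Elsewhere 0 control and 2 Cre UMIs were found in glia, 1 and 1 in mesothelium, 0 and 2 in muscle and none in lymphatic endothelium. A difference in Ciita was thus not detectable at this depth.

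Cd74, H2-Aa, H2-Ab1 and H2-Eb1, called the 4 core genes here, were then counted together in single cells. In control fibroblasts 80 of 9411 cells (0.8501%, 0.675 to 1.06) held UMIs of at least 2 of them, and in Cre fibroblasts 481 of 7485 (6.43%, 5.88 to 7.01). After thinning to 2000 UMIs the shares were 0.125% and 1.42%. All 4 core genes were found in 7 control and 61 Cre fibroblasts. At least 2 core genes were held by 1 of 67 control and 26 of 113 Cre glia (23.0%, 15.6 to 31.9), by 4 of 61 and 19 of 46 mesothelial cells (41.3%, 27.0 to 56.8), by 0 of 44 and 16 of 42 lymphatic endothelial cells (38.1%, 23.6 to 54.4) and by 1 of 636 and 8 of 162 muscle cells (4.94%, 2.16 to 9.50). The thinned Cre shares were 14.8% in glia, 23.9% in mesothelium, 40.7% in lymphatic endothelium (of 27 cells) and 1.27% in muscle. All 4 core genes were found together in 12 Cre glia, 8 Cre mesothelial and 7 Cre lymphatic endothelial cells, and in no control cell of these classes.

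**Figure D2:**
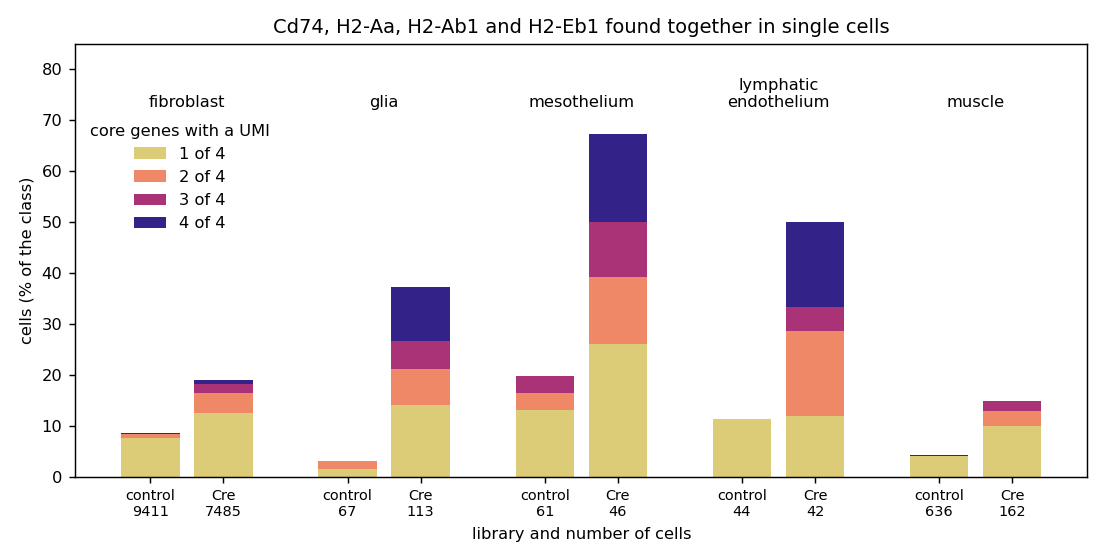
Share of cells in each class and library with UMIs of 1, 2, 3 or all of the 4 core genes (stacked, in percent of the class; the number of cells stands under each bar; unthinned counts). Cells with all 4 make up a visible part of the Cre bars of glia, mesothelium and lymphatic endothelium, and hardly any of the fibroblast and muscle bars.

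The class II UMIs of the small classes were held by few cells. In Cre glia the 10 cells with most of them held 352 of the 481 UMIs (73.2%), in mesothelium 331 of 432 (76.6%) and in lymphatic endothelium 117 of 143 (81.8%), against 487 of 5172 (9.42%) in fibroblasts. A pair of Cre glial cells held 72 and 55 of the 164 Cd74 UMIs, at depths of 5610 and 5644 UMIs. Both were glial by their markers, with 32.1 and 56.7 glial marker UMIs per 10000 and at most 5.35 fibroblast marker UMIs, and both held Cxcl9 (16 and 7 UMIs). Without the 3 cells of each class and library with most class II UMIs, Cre glia still had 61.5 CPM of Cd74 (43.1 to 85.2) in 14 of 110 cells and 157 CPM of H2-Ab1 (127 to 193) in 31 cells, while the remaining 64 control glia had no UMI of any of the 7 genes. Mesothelium without its 3 cells had 22.2 and 255 CPM of Cd74, and lymphatic endothelium 0 and 370 CPM.

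Leukocyte RNA was measured beside each class with a list of 22 marker genes. Lymphatic endothelium had 0 UMIs of all 22 in both libraries, also in the 16 Cre cells with 2 or more core genes. In Cre glia the list summed to 53.2 CPM (36.4 to 75.1), against 58.7 CPM (34.8 to 92.7) in control glia, and 4 of its 22 genes were detected, mainly Lyz2 and Cd68. The 26 Cre glia with 2 or more core genes held 9 UMIs of the list, all of Cd68 and Lyz2. In mesothelium the list summed to 58.8 CPM (41.2 to 81.5) in the control and 34.3 CPM (20.6 to 53.5) in the Cre library, mainly Csf1r and Cd68, the opposite order to that of the class II genes. In muscle it was 13.8 CPM and 13.9 CPM. Ptprc, the B cell gene Ms4a1 and the T cell gene Cd3g had no UMI in these 4 classes, but another B cell gene, Cd79a, was detected in Cre glia, Cre mesothelium and control muscle, and the T cell gene Cd3e in control muscle. A list of 5 plasma cell genes had 0 UMIs in glia of both libraries, 0 and 1 in mesothelium and 2 and 1 in lymphatic endothelium. In muscle that list moved with the class II genes, at 11.5 CPM (8.59 to 15.2) in the control and 30.5 CPM (21.2 to 42.4) in the Cre library. The 8 Cre muscle cells with 2 or more core genes held 9 of its UMIs, in 3 cells (142 CPM, 64.9 to 270), against 14.0 CPM (7.45 to 23.9) in those with no core gene. Its part in the muscle values was not tested.

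In fibroblasts the leukocyte list moved with the class II genes. It summed to 15.9 CPM (14.95 to 16.9) in the control and 22.2 CPM (21.1 to 23.4) in the Cre library, with 13 and 19 of its 22 genes detected. In fibroblasts with 2 or more core genes it was 60.1 CPM (44.0 to 80.2) and 49.4 CPM (43.4 to 56.0), and in those with no core gene 14.8 and 19.0 CPM. A single control cell in the fibroblast gate, with 34 of the 251 Cd74 UMIs of that class and none of the other 6 genes, held 14 UMIs of the list and 1210 of the 2385 plasma cell UMIs of the class. The plasma cell list was 36.3 CPM in control and 18.7 CPM in Cre fibroblasts, or 17.9 and 17.4 CPM without the 1 cell of each library that held most of it. A list of red cell genes was 0.533 and 115 CPM, and 1 Cre cell with 1 class II UMI held 6767 of its 7035 UMIs. Without the 1 cell of each library with most of them it was 0.502 and 4.38 CPM, and its part in the class II values was not tested. Fibroblasts were also counted without the cells that held leukocyte transcripts. A cell with no UMI of the list can still hold leukocyte RNA, so its part in the fibroblast values was not tested. Without the Ptprc-positive cells the Cre to control ratio was 4.61 for Cd74, 9.75 for H2-Aa and 2.97 for the sum, and in the 8510 control and 6392 Cre fibroblasts with no UMI of any of the 22 genes it was 5.50 (4.55 to 6.68), 11.8 (9.03 to 15.6) and 2.87 (2.70 to 3.04). For the other measured genes the ratio in the latter cells was 2.11 for H2-Ab1, 4.35 for H2-Eb1, 2.05 for H2-DMa and 1.69 for H2-DMb1. In all fibroblasts these ratios were 2.16, 4.85, 2.18 and 1.67. The Cd74 level was lower in both libraries without the cells that carried a leukocyte transcript. It was 2.27 CPM (1.90 to 2.69) and 12.4 CPM (11.5 to 13.5), against 3.82 and 17.2 CPM in all fibroblasts. Of the 189 Cre fibroblasts with 3 or 4 core genes, 111 had no UMI of the 22 genes.

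The balance between the class II genes also differed between classes. Control fibroblasts held 2.94 H2-Ab1 UMIs per Cd74 UMI (2.54 to 3.40), and Cre fibroblasts 1.41 (1.30 to 1.52). Cre glia held 0.848 (0.671 to 1.07), Cre lymphatic endothelium 0.564 (0.351 to 0.891), Cre mesothelium 0.242 (0.179 to 0.323) and the leukocyte-gated cells 0.372 (0.245 to 0.554) and 0.243 (0.193 to 0.302). Fibroblasts thus had more H2-Ab1 than Cd74 UMIs in both libraries, and mesothelium fewer. H2-Aa per Cd74 UMI was 0.379 (0.296 to 0.481) in control and 0.809 (0.738 to 0.886) in Cre fibroblasts, 0.180 (0.128 to 0.249) in Cre mesothelium and 0.317 (0.228 to 0.436) in Cre glia. A few cells set some of these values. Without the 3 cells of each class and library with most class II UMIs, a choice made after seeing the data, Cre glia held 2.56 H2-Ab1 UMIs per Cd74 UMI (1.72 to 3.87) and 0.917 H2-Aa UMIs (0.554 to 1.51), so that H2-Ab1 and not Cd74 had the most UMIs there. Cre lymphatic endothelium then held 0.306 H2-Ab1 UMIs (0.140 to 0.614), an interval that overlaps the 0.255 (0.182 to 0.352) of the Cre leukocyte-gated cells, and the control leukocyte-gated cells 1.14 (0.362 to 3.70). The order of glia, lymphatic endothelium and leukocyte-gated cells therefore changes with those cells. Fibroblasts, at 3.74 (3.19 to 4.40) and 1.504 (1.38 to 1.63), and Cre mesothelium, at 0.271 (0.182 to 0.394), stayed on their sides of 1.

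**Figure D3:**
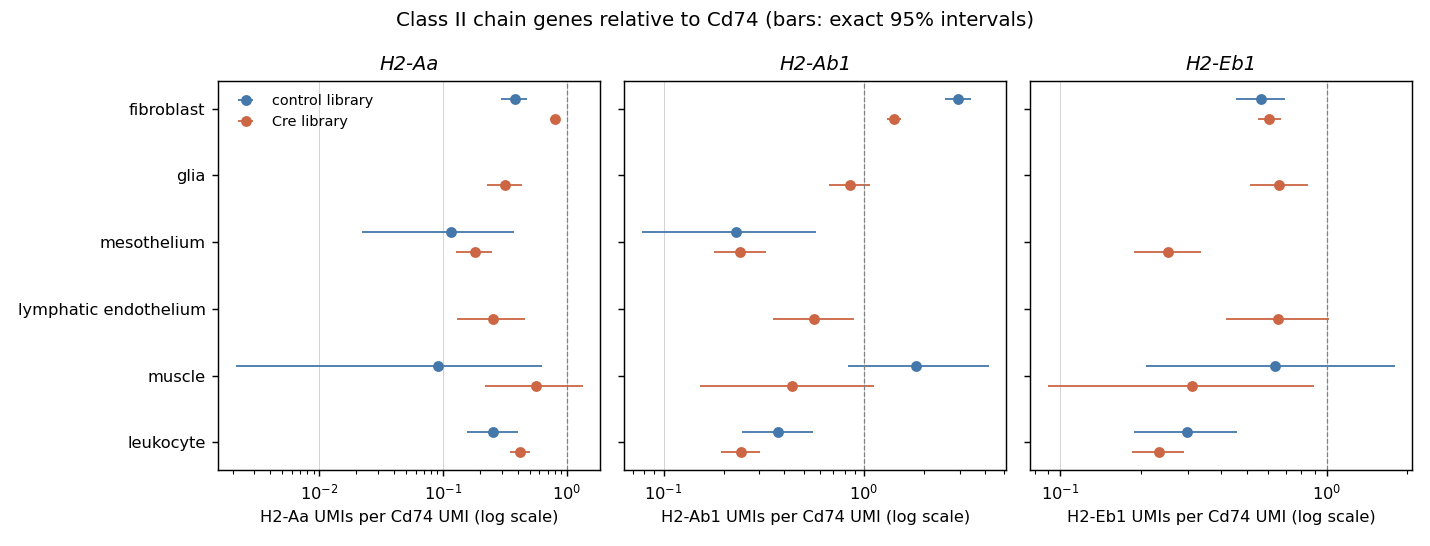
UMIs of H2-Aa, H2-Ab1 and H2-Eb1 per Cd74 UMI (log scale) in the 5 stromal classes and in leukocyte-gated cells, 1 point per library with exact 95% intervals; points are left out where Cd74 had fewer than 5 UMIs or the gene had none. For H2-Ab1 the fibroblast points lie at 2.94 and 1.41, to the right of the dashed line at 1, and the mesothelial and leukocyte points between 0.231 and 0.372.

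H2-Ab1 in control fibroblasts was mostly found without the other core genes. Of the 723 control fibroblasts with exactly 1 core gene, 481 (66.5%) held H2-Ab1, and of the 935 Cre ones 376 (40.2%) did. Fibroblasts of both libraries were clustered together, and the clusters are named here by number and leading genes. In cluster 5, led by Sox6 and Procr and marked by the subepithelial fibroblast list, H2-Ab1 was the only core gene in 138 of 142 such control cells. That cluster had 172 UMIs of H2-Ab1 (21.4 CPM, 18.3 to 24.9) in 1148 control cells, beside 2 UMIs of Cd74 and none of H2-Aa. Control H2-Ab1 was higher still in cluster 9, led by Cd36 and Tbxas1, at 42.7 CPM (38.0 to 47.9) in 666 cells, and was 0.549 CPM in cluster 0 (Cilp, Ackr4) and 1.07 CPM in cluster 3 (Pi16, Ebf1), both marked by the adventitial list. Control cells of cluster 9 held 298 H2-Ab1 and 46 Cd74 UMIs, and those of cluster 7 (Stmn2, Hapln1) 162 and 41. In cluster 1 (Frmpd4, Sfrp2), the largest control cluster with 2486 cells, H2-Ab1 had fewer UMIs than Cd74, 63 and 105. The control cell with 1210 plasma cell UMIs held 34 of these 105. Cells with a UMI were 55 for H2-Ab1 and 62 for Cd74. Clusters 7 and 9 held only 35 and 12 Cre cells. The part of the cluster mix in the fibroblast values per Cd74 UMI was not tested.

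The clusters with cells of both libraries allow the genes to be compared within them. In cluster 5 H2-Ab1 was 19.3 CPM (14.9 to 24.7) in 444 Cre cells, a ratio of 0.903 (0.667 to 1.21), while Cd74 went from 0.249 to 9.97 CPM, a ratio of 40.04 (10.2 to 344), and H2-DMa from 3.99 to 11.8 CPM, a ratio of 2.96 (1.81 to 4.88). In cluster 0 H2-Ab1 was 7.46 CPM in the Cre library, 13.6-fold higher (5.02 to 51.6), and in cluster 3 it was 12.1 CPM, 11.4-fold higher (5.66 to 25.2). The H2-Ab1 ratio of cluster 5 thus lies below those of clusters 0 and 3, with intervals that do not overlap, and its starting level was far above theirs. In cluster 4 (Myoc, Sfrp4) the ratio was 4.33 (1.80 to 13.6) and in cluster 10 (Adamdec1, Nav2) 2.86 (1.20 to 7.83). In cluster 3 H2-Eb1 was 2.56 and 2.64 CPM, a ratio of 1.03 (0.439 to 2.23), and H2-DMa 1.92 and 1.84 CPM, a ratio of 0.960 (0.339 to 2.41), and neither interval excludes a ratio of 1.

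The summed level in the Cre library was highest in cluster 2 (Edil3, Cxcl13), at 149 CPM (143 to 155) in 1908 cells, and in cluster 6 (Npy1r, Ifi207), at 118 CPM (112 to 124) in 1466 cells. At least 2 core genes were found in 10.9% (9.54 to 12.4) and 11.6% (10.0 to 13.3) of these cells. The clusters together hold most of the Cre fibroblasts with 2 or more core genes, 43.5% and 35.6% of those that fell into a fibroblast cluster. Only 127 and 69 control cells fell into these clusters, so they are largely clusters of the Cre library. Interferon-induced genes (Cxcl9 in cluster 2, Ifi207 and Ifit1 in cluster 6) were among their leading genes. Those genes and the class II genes were left out of the genes used for clustering. The control cells of clusters 2 and 6 had 19.5 CPM (10.9 to 32.1) and 13.9 CPM (5.08 to 30.2). In the 5 clusters with at least 200 cells in each library, the sum was higher in the Cre library in each, from 1.74-fold (1.44 to 2.08) in cluster 5 to 4.14-fold (3.10 to 5.60) in cluster 0.

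Cxcl9, a chemokine gene induced by interferon gamma, was used to split the fibroblasts. Of 500 Cre fibroblasts with a Cxcl9 UMI, 84 (16.8%, 13.6 to 20.4) held 2 or more core genes, and of 6985 without one 397 (5.68%, 5.15 to 6.25) did, or 4.84% and 1.17% after thinning. Median depth was 9638 and 7593 UMIs. The levels followed: Cd74 was 49.1 CPM and 14.4 CPM, H2-Aa 36.6 and 11.9 CPM, and H2-Ab1 70.8 and 20.1 CPM. In the control library the 78 fibroblasts with a Cxcl9 UMI had 40.7 CPM of H2-Ab1, 6.35 CPM of Cd74 and 1 UMI of H2-Aa, so their H2-Ab1 level lay above the 10.9 CPM of the other control fibroblasts while the other core genes had 5 UMIs or fewer each. Mesothelium held no Cxcl9 UMI in either library and neither did lymphatic endothelium.

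Other interferon genes were compared between cells with and without class II RNA, and some of them are given here. Gbp2, an interferon-induced GTPase gene, was 945 CPM in Cre glia with 2 or more core genes and 512 CPM in Cre glia with no core gene, and Iigp1, another, 1027 and 585 CPM. In Cre fibroblasts the same pairs were 371 and 160 CPM for Gbp2 and 808 and 388 CPM for Iigp1. B2m, the light chain gene of MHC class I, was 4637 and 2404 CPM in Cre glia, and 3837 and 2263 CPM in Cre fibroblasts. Irf1, a transcription factor gene, did not have this order in each class. It was 663 and 608 CPM in Cre fibroblasts and 347 and 333.5 CPM in Cre muscle. In Cre glia it was 724.5 CPM (598 to 870) and 802 CPM (712 to 901). In Cre mesothelium it was 464 CPM (380 to 561) and 715 CPM (574 to 880). In Cre lymphatic endothelium it was 154 CPM (66.4 to 303) and 529.5 CPM (343 to 782). Irf1 was not alone in this. Socs1 was 113 and 132 CPM in Cre glia and 19.2 and 106 CPM in Cre lymphatic endothelium, with overlapping intervals in both. It was 191 and 139 CPM in Cre fibroblasts, 82.4 and 40.2 CPM in Cre mesothelium and 126 and 72.1 CPM in Cre muscle. The median Cre glial cell had 52.0 glial marker UMIs per 10000 with at least 2 core genes and 49.1 with none, and the median Cre fibroblast 154 and 169 fibroblast marker UMIs. In lymphatic endothelium its own markers were 398 and 248. In Cre mesothelium its own markers were lower in the cells with core genes, at 38.2 against 55.4, and fibroblast markers higher, at 131 against 95.2. Cells with 2 or more genes detected were deeper, with median depths of 9909 and 7459 UMIs in Cre fibroblasts.

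The order of the classes by class II level was not that by Iigp1 or Cxcl9. Cre muscle had 541 CPM of Iigp1 (21.3 CPM in control muscle), 410 CPM of Gbp2 and 111 CPM of Cxcl9, and the lowest class II sum of the 5 classes, 45.3 CPM. Cre mesothelium had 141 CPM of Iigp1, below Cre fibroblasts at 445 CPM, with a class II sum of 779 CPM against 84.4 CPM. Its Gbp2 level was above theirs, at 406 CPM (354 to 462) against 188 CPM (185 to 192).

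The other genes of the pathway were read in fibroblasts from 3 lists, against the 5% of measured genes that were past the fold upward and the 4.19% downward. Of 18 other class II genes (further class II chains, proteases, the ligases that remove class II from the surface, and the promoter-binding factors), 11 were measured and none was past the fold in either direction, with a median log2 ratio of -0.052 against -0.031 over all measured genes. Ctsl, a cathepsin that trims the invariant chain, was 1163 and 987 CPM, and Lgmn, another endosomal protease, 293 and 240 CPM. Ifi30, the endosomal thiol reductase, was 52.4 and 40.3 CPM, the lowest log2 ratio of the list at -0.37, although it is known as interferon-induced. Marchf8, a ligase, was 35.8 and 39.3 CPM. Rfxank, a subunit of the factor on the X box, was 6.85 and 8.75 CPM, the highest log2 ratio of the list at 0.31, and the other X, X2 and Y box factors lay between 0.907 (Rfxap) and 1.06 (Rfx5) times their control level. Ctss, the cathepsin of professional antigen-presenting cells, had 28 and 55 UMIs and did not reach the minimum. H2-Oa, H2-Ob, H2-DMb2 and H2-Eb2 had 5 UMIs or fewer in each library.

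Of 12 interferon gamma pathway genes all were measured, 6 were past the fold upward and none downward, with a median log2 ratio of 0.48. The largest were Cxcl9, at 6.91 and 77.0 CPM (log2 ratio 3.30), and Iigp1, at 49.8 and 445 CPM (3.14). Irf1, a transcription factor gene that acts upstream of Ciita, was 397 and 619 CPM. Jak1, the receptor-associated kinase, was 426 and 422 CPM, and the receptor gene Ifngr1 161 and 156 CPM, the lowest log2 ratio of the list at -0.044. Gbp2, at 43.7 and 188 CPM, and Socs1, at 90.2 and 145 CPM, were also past the fold.

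Of 7 costimulation genes, which deliver the second signal to T cells or block it, 5 were measured, 1 was past the fold upward and 2 downward. Cd274, the gene of the inhibitory ligand PD-L1, was 6.18 and 19.9 CPM (log2 ratio 1.54). Cd40 was 12.4 and 7.72 CPM (-0.62), Tnfsf4, the OX40 ligand gene, 1.87 and 0.865 CPM (-0.62), and Icosl 53.7 and 35.9 CPM (-0.57). Cd80 was 1.37 and 1.58 CPM, and Cd86 had 0 and 3 UMIs. Cd86 had no UMI in glia, mesothelium, lymphatic endothelium or muscle, and Cd80 at most 1 UMI per library in the first 3 of these classes.

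**Figure D4:**
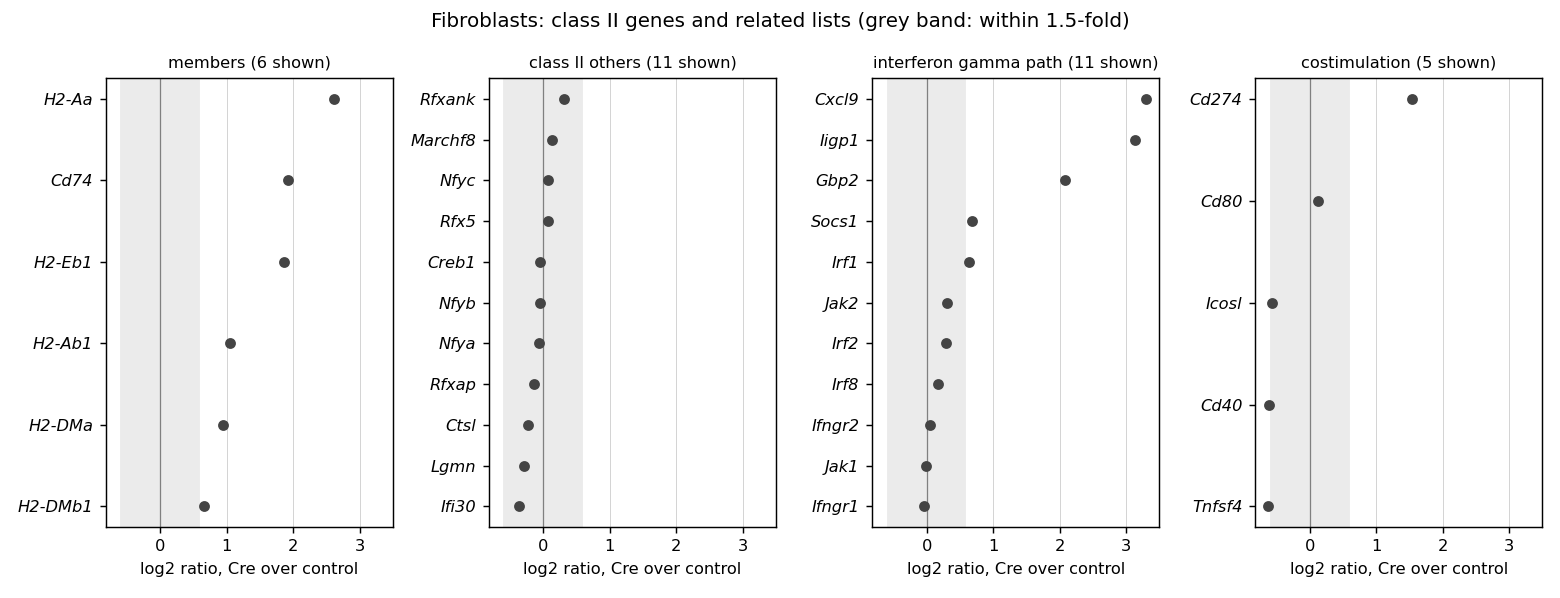
Log2 ratio of the Cre over the control library in fibroblasts (1 CPM added to both) for the 6 measured class II members and the measured genes of the 3 lists that are reported here; the grey band holds ratios within 1.5-fold. The members and the upper 5 interferon genes shown lie to the right of the band, from 0.64 to 3.30, and the other class II genes lie within it.

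The genes whose level was most like that of the class II sum were picked over 12 points, the 5 classes and cells like interstitial cells of Cajal (the pacemaker cells of the gut wall; 46 and 50 cells, class II sum 38.8 and 123 CPM) in each library, among 9823 genes that averaged 10 CPM or more. Leukocyte-gated cells were left out of these points, although the 21 of the Cre library reach the minimum of 20 cells. They were Yme1l1 (Pearson r 0.93), Srsf5 (0.89), Tor1aip2 (0.85), Adar (0.83), Tap2 (0.82) and Pld2 (0.81), where r was taken on log2(CPM + 1). Points of 1 library share its cells' source and chemistry, and r describes these 12 points only. Tap2, a transporter of peptides for MHC class I, was 49.7 and 81.1 CPM in fibroblasts and 40.9 and 218 CPM in lymphatic endothelium.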

How the data were processed

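UMI counts per gene and cell were deposited by the authors as filtered 10x matrices of 33696 features, made with Cell Ranger 8.0.1 on GRCm39 per the submitters' processing notes. The control library held 11380 barcodes and 76570611 UMIs, the Cre library 8627 and 66845139. Cells with under 500 genes or over 10% mitochondrial UMIs (330 and 214) and Scrublet doublets (scanpy 1.11.5; 393 and 111) were left out. Classes needed at least 3 markers and 10 marker UMIs per 10000 (muscle 4 and 30). Leukocytes and cells like interstitial cells of Cajal needed 3 and 5, and fibroblasts 4 of 6 markers with no other class. These minimums were set after the marker distributions were seen. Raw counts were summed per class and library and divided by all UMIs (CPM). With 1 library per genotype there was no test: exact Poisson, Clopper-Pearson and conditional binomial intervals are given. To compare shares, cells were thinned to 2000 UMIs, which left out 603 and 299 fibroblasts. Of the lymphatic endothelial cells it kept 21 of 44 in the control and 27 of 42 in the Cre library. Clusters used Leiden (leidenalg 0.10.2). On simulated fibroblast sums of 13833 genes, the 1.5-fold rule found 50 of 50 genes doubled and 44 of 50 halved, and 0 of 13633 unchanged ones. These sums held counting error only, with no spread between mice, libraries or cells. They therefore do not give the share of false calls between the 2 real libraries. All 7 members are named, and of each list the 2 highest, 2 lowest and 2 most abundant measured genes; further names were chosen after their values were seen. The members and lists were chosen with earlier results of these data known. In GENCODE's annotation H2-Eb1, H2-DMa and Ciita overlap genes on the other strand (Gm20513, Brd2, Dexi), and whether the counting used strand is not given in the sources used here. Columns of per-sample values left unused: 0. A few genes of the marker and pathway lists are counted but not reported here by name.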

Additional observations from a re-analysis of the deposited data

Results flagged for a closer look

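Cd74 was lower in the Cre than in the control library in fibroblast cluster 11 (led by Kcnn3), at 16.1 CPM (8.80 to 27.0; 14 UMIs in 126 cells) and 6.66 CPM (3.55 to 11.4; 13 UMIs in 243 cells), a ratio of 0.414 (0.179 to 0.949), while its ratio was above 1 in the clusters with at least 200 cells in each library. This cluster stood out because its direction is opposite to theirs. The difference between clusters was not tested. A single control cell held 6 of the 14 UMIs.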

How the results depend on the processing

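No paired analysis was possible because each genotype has 1 library. The class II sum was higher in the Cre library in all 5 classes under each alternative that gave a value, with log2 ratios of 1.29 to 1.56 in fibroblasts, 4.11 to 8.71 in glia, 2.81 to 3.30 in mesothelium, 4.14 to 4.99 in lymphatic endothelium and 0.93 to 1.38 in muscle. The main value of 1.53 in fibroblasts was 1.29 with 10 CPM added and 1.29 with the fibroblast clusters of at least 200 cells per library weighing alike, an alternative chosen after seeing the data. The glial ratio was 8.71 without the 3 cells of each class and library with most class II UMIs, also chosen after seeing the data, because the control then held no UMI. With a mean of at least 10 CPM required, 2 members were measured in fibroblasts and both were past the fold, and with 10 CPM added 4 of 6 were. Some ratios changed sign. In muscle H2-DMa (main value 0.05) was -0.030 when cells needed 200 genes and could hold 20% mitochondrial UMIs, -0.24 without cells with a leukocyte marker UMI, -0.25 as a mean of single-cell CPM and -0.26 with the gate minimum doubled. H2-DMb1 in muscle (0.16) was -0.25 as a mean of single-cell CPM and -0.055 without those 3 cells, and in mesothelium (0.14) -0.0047 without them. The cause was not tested. Of the other single-gene and share values, 404 kept their direction and lay within the counting limits of the main value, and 45 lay outside them. Most of these 45 came with another added CPM, after thinning or without those 3 cells. For ratios between libraries the limits divide the interval end of 1 library by the opposite end of the other, so they are wide in small classes. Depth limits Ciita, all H2-DM values outside fibroblasts, and every control value in glia and lymphatic endothelium.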
